A study of Mus musculus with 2 samples.

Results

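The thyroid hormone axis of the liver was examined in 9 genes, of which 5 are genes that respond to the hormone (Dio1, Me1, Thrsp, Hr and Klf9) and 4 encode its receptors, its carrier in blood and a transporter (Thra, Thrb, Ttr and Slc16a10). They were chosen by gene symbol, out of 18194 genes named on the array, and all 9 were found, on 27 of its 45101 probe sets. The choice was made with the FLS/DS ratios of these arrays known, so the ratios below describe the 2 pools and were not tested. Liver messenger RNA was measured on 2 Affymetrix mouse genome arrays, 1 for the FLS strain and 1 for the DS strain, each hybridized with RNA pooled from 3 mice at 19 weeks of age. FLS (Fatty liver Shionogi) mice are an inbred strain bred from a line (C) of the outbred ddN colony and served as the NASH model, while DS (dd Shionogi) mice are an inbred strain bred from another line (A) and stood for simple steatosis. No transgene or treatment is described for either strain, and both ate the same standard pellet diet. The sex of the mice, their feeding state and the hour at which livers were taken are not given in the sources used here. A pool of 3 mice gives their average and no spread, and the groups are whole strains, so that steatohepatitis, body weight and every other strain difference cannot be told apart. The FLS/DS ratio of a gene is read from its brightest probe set, by the mean of the 2 signals, and a gene is called measured if that signal exceeded 500 in at least 1 pool.

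Thyroid hormone is secreted mainly as thyroxine (T4), which travels in blood on carrier proteins, enters liver cells through membrane transporters and is converted by deiodinases to the active triiodothyronine (T3). T3 binds the nuclear receptors encoded by Thra and Thrb, which sit on DNA as partners of retinoid X receptors and exchange corepressors for coactivators when the hormone is bound. In liver, the main receptor is that of Thrb, and the classical induced genes include Dio1, Me1 and Thrsp, which are therefore used as readouts of hormone action, although Me1 and Thrsp also respond strongly to carbohydrate feeding and insulin.

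Of the 5 hormone-responsive genes, Dio1, Me1 and Thrsp had signals in FLS livers at least 2-fold below those in DS livers, while Hr and Klf9 did not differ by as much. Among all 5076 measured genes, 1.77% reached a 2-fold lower signal in FLS livers and 2.29% a 2-fold higher one, and among all 18194 genes without a signal limit the shares were 0.709% and 0.989%. As the genes were picked with these ratios known, nothing is read from the count of 3. In RNA of whole liver, fewer cells that express a gene and less of its RNA per cell cannot be told apart. The signals of every probe set are plotted by strain.

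**Figure D1:**
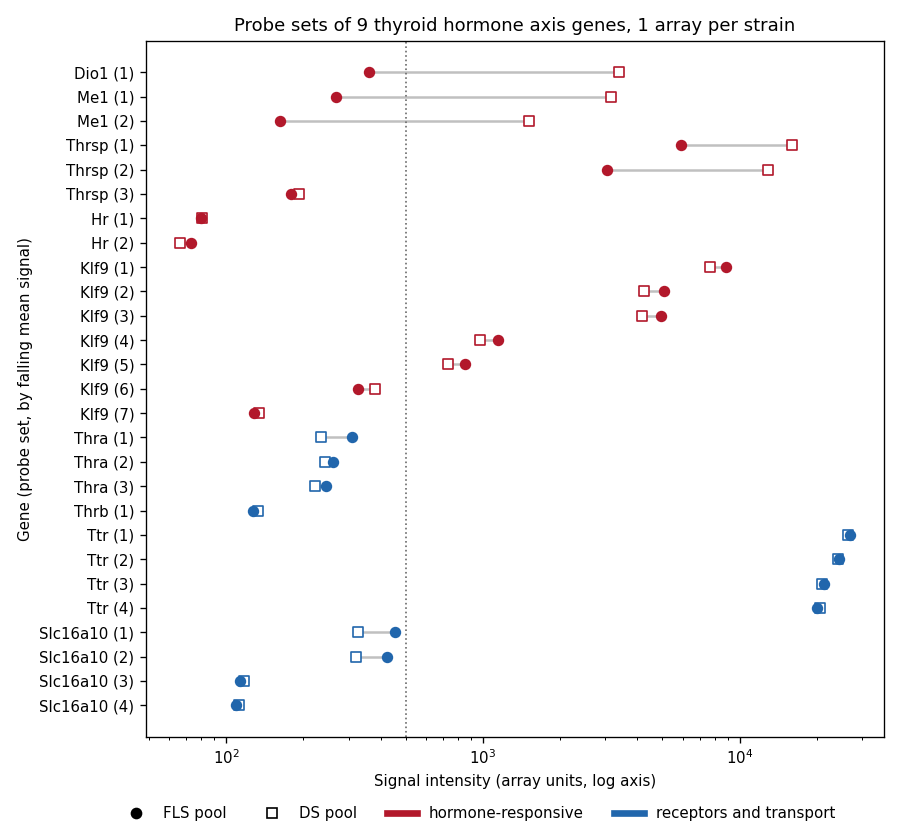
Signal intensity (array units, log axis) of all 27 probe sets of the 9 genes in the FLS pool (filled circles) and the DS pool (open squares), with hormone-responsive genes in red, receptors and transport in blue, and the dotted line at 500. The probe sets of Dio1 and Me1 and 2 of 3 of Thrsp have the circle far to the left of the square, while those of Klf9 and Ttr have the symbols close together.

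Dio1 encodes type 1 deiodinase, a selenoprotein of liver and kidney that removes iodine from T4 and from reverse T3, and whose own transcription is raised by T3. Its only probe set had signals of 361 in FLS livers against 3402 in DS livers. The FLS/DS ratio was 0.106, which is 9.43-fold lower in FLS livers. The signal of the FLS pool was at percentile 78.8 of that array, where the array median was 120.3. With a single probe set, the difference has no second readout on the array.

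Me1 encodes the cytosolic malic enzyme, which turns malate into pyruvate and supplies NADPH for fatty acid synthesis. The brighter of its 2 probe sets had signals of 268 in FLS livers against 3159 in DS livers, for a ratio of 0.0850 or 11.8-fold lower in FLS livers, the FLS signal being at percentile 73.8 of its array. The other probe set had signals of 162 and 1507, a ratio of 0.108, with its FLS signal closer to the array median. Both readouts of Me1 thus had the FLS pool about as far below the DS pool, with 0.34 between their log2 ratios. The pooled SD between probe sets of 1 gene was 0.22 on the log2 scale over 1424 genes.

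Thrsp encodes Spot 14, a small nuclear and cytosolic protein of lipogenic tissues whose gene is known for a rapid response to thyroid hormone. Its brightest probe set had signals of 5906 in FLS livers against 15952 in DS livers, for a ratio of 0.370 or 2.70-fold lower in FLS livers. A second probe set had signals of 3033 and 12943 and a ratio of 0.234. The third had signals of 179 and 192, not far above the array medians, and a ratio of 0.936. Both bright probe sets had the lower signal in FLS livers, while the dim one differed little between the pools. The log2 ratios of the bright ones were -1.43 and -2.09, further apart than those of Me1.

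Among the 5076 measured genes, ordered from the lowest ratio, Me1 ranked 5, Dio1 ranked 6 and Thrsp ranked 54. Only 9 of these genes, or 0.177%, were 8-fold or more below their DS signal, Me1 and Dio1 included. These ranks come from the contrast used to choose the genes and are given as their place in it.

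Hr encodes hairless, a nuclear corepressor that binds thyroid hormone receptors and whose gene is induced by the hormone in brain. Its 2 probe sets had signals of 79.8 and 73.0 in the FLS pool and of 80.6 and 65.9 in the DS pool. All of these lie below the array medians of 120.3 and 125.2, so the ratios of 0.991 and 1.11 carry no information on a difference.

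Klf9 encodes a zinc finger transcription factor that responds directly to T3 and also to glucocorticoids. Its brightest probe set had signals of 8870 in FLS livers against 7678 in DS livers, for a ratio of 1.16. On the 5 of its 7 probe sets with a signal above 500, the ratio lay between 1.16 and 1.20, with the FLS pool higher on each. The remaining 2, with signals of 325 and 128 in the FLS pool and 380 and 134 in the DS pool, had ratios of 0.855 and 0.954. Klf9 was therefore slightly higher in FLS livers on every bright probe set, without the lower signal seen for Dio1, Me1 and Thrsp. Its log2 ratio of 0.21 was smaller than the SD of 0.22 between probe sets of 1 gene. Ordered from the lowest ratio, it ranked 3671 among the 5076 measured genes.

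The 4 genes of receptors and transport all had ratios within 2-fold, from 0.959 to 1.39. Thra, which encodes the alpha receptor and, by splicing, a form that binds no hormone, had signals of 310 in FLS livers against 233 in DS livers, for a ratio of 1.33. Its other 2 probe sets had signals of 260 and 245 in the FLS pool and of 243 and 222 in the DS pool. Their ratios were 1.07 and 1.11, so all 3 readouts were higher in FLS livers, and none reached a signal of 500.

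Thrb, the gene of the main hepatic receptor, was represented by 1 probe set with a signal of 128 in FLS livers against 133 in DS livers. Its ratio was 0.959 at percentiles 52.6 and 52.9 of the arrays. As these signals lie at the array medians, no difference in this receptor can be read from them.

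Ttr encodes transthyretin, a carrier of thyroxine and of retinol-binding protein that liver secretes in large amounts. Its 4 probe sets had signals between 20067 and 27009 in the FLS pool and between 20528 and 26453 in the DS pool. Their ratios ran from 0.978 to 1.02, the narrowest range of the genes with several probe sets here. These signals are among the brightest of both arrays, and the pools differed by little on each probe set.

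Slc16a10 encodes MCT10, a transporter of aromatic amino acids and of T3. It had signals of 454 in FLS livers against 326 in DS livers, for a ratio of 1.39, and a second probe set had 422 and 322, a ratio of 1.31. Its 2 dimmer probe sets had ratios of 0.975 and 0.965 with signals between 109 and 117. The FLS pool was higher on both brighter probe sets, and none exceeded 500.

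The median log2 ratio was -1.43 over the 5 hormone-responsive genes and 0.22 over the 4 genes of receptors and transport. Over all 18194 genes it was -0.04, and over the 5076 measured genes it was 0.04. Only 5 of the 9 genes were measured, namely Dio1, Me1, Thrsp, Klf9 and Ttr, so Thra, Thrb and Slc16a10 entered the second median with signals below 500. That median lies midway between the log2 ratios of Ttr (0.03) and Thra (0.41). The first median is the value of Thrsp, the middle of the 5, since Dio1 and Me1 lay far lower and Hr and Klf9 near 0. The responsive genes were thus split, with log2 ratios from -3.56 for Me1 to 0.21 for Klf9.

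The promoters of Dio1, Me1 and Thrsp are shown because these genes were the 3 with a large difference. Sequences are from RefSeq on GRCm38.p6, the build of the reference mouse and not of the FLS or DS strain, and each gives the 250 bases before the annotated start of the gene, 5′ to 3′ in the direction of transcription. All 3 genes lie on the minus strand, Dio1 at chr4:107307169-107307418, Me1 at chr9:86695915-86696164 and Thrsp at chr7:97417551-97417800. Capitals mark CCAAT on either strand, which reads ATTGG where it lies on the opposite strand.
Dio1: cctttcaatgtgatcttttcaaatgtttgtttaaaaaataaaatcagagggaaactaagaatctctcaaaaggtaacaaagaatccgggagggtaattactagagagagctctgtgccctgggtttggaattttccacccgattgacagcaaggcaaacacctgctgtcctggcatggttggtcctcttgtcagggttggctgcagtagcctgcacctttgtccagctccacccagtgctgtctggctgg
Me1: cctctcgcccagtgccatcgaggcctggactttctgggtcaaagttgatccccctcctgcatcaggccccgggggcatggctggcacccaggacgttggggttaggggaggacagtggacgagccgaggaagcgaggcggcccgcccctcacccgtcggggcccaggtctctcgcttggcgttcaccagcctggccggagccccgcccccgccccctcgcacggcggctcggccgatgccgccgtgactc
Thrsp: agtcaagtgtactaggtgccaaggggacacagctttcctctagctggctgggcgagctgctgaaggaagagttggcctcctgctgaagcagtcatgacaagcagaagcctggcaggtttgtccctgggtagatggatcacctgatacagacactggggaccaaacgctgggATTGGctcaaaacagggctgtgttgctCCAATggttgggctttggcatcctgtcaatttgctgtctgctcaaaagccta

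No exact copy of AGGTCA, the core letters bound by thyroid hormone receptors, stood on either strand of these 3 windows. Only exact copies were searched, so a receptor site that departs from these letters would not have been counted, in the window of Me1 as in the others. It was found in 14% of all 32851 promoter windows of the same length, and 2 copies in the same direction with 4 bases between them, the arrangement called DR4, in 0.0152%. The E-box CACGTG, held by 6.02% of windows, and the sterol response element TCACNCCAC, held by 1.05%, were also not found in the windows of Dio1, Me1 and Thrsp. CCAAT, present in 33.8% of windows, occurred at 2 places in that of Thrsp and at none in those of Dio1 and Me1. A second annotated start of Me1 had 1 CCAAT and none of the other motifs.

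The windows also differed in composition. The printed window of Me1 held 72.0% G and C with 23 CpG and that of its second start 46.0% with 2 CpG, while that of Thrsp held 53.6% with 2 CpG and that of Dio1 46.8% with 2 CpG, against medians of 52.4% and 6 over all windows. Among the other genes whose windows were read, AGGTCA occurred once, at 1 of 2 annotated starts of Thrb. Klf9 held 3 and Slc16a10 2 copies of CCAAT. A match of letters does not show that a factor binds, and the lack of an exact match does not show that a site is absent. The response elements known for Thrsp lie further upstream than the window.

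Near relatives of the 9 genes were compared in order to see whether a difference extended to other members of a family. Dio2, the deiodinase of brown fat, brain and pituitary, had signals of 87.3 in FLS livers against 85.8 in DS livers. The mitochondrial malic enzymes Me2 and Me3 had signals of 113 and 72.5 in the FLS pool and 132 and 75.5 in the DS pool. All of these lie near or below the array medians, so of the deiodinases and malic enzymes read here only Dio1 and Me1 had a clear signal in a pool.

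Mid1ip1, the paralog of Thrsp whose product also takes part in control of acetyl-CoA carboxylase, had signals of 1006 in FLS livers against 1726 in DS livers. The ratio of 0.583 had the same direction as that of Thrsp and did not reach 2-fold. Klf13, a close relative of Klf9, had signals of 961 and 1486 and a ratio of 0.647, where Klf9 had 1.16. The demethylase relatives of Hr had ratios of 0.863 for Jmjd1c, 1.38 for Kdm3a and 1.15 for Kdm3b, of which only Jmjd1c was measured.

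Nr1d1, the gene of the clock repressor REV-ERB alpha, lies on the opposite strand from Thra and overlaps its end. It had signals of 612 in FLS livers against 292 in DS livers, for a ratio of 2.10, while the 3 probe sets of Thra had ratios between 1.07 and 1.33.

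Other liver genes that thyroid hormone is known to raise had ratios nearer to 1 than Dio1 and Me1. Of 16 such genes listed, 14 were found and 10 were measured, of which 2 had a signal at least 2-fold lower in FLS livers, none at least 2-fold higher and 8 between, where 1.77% of all measured genes were lower and 2.29% higher by that much. The lower ones were the fatty acid synthase gene Fasn, with 1677 in FLS livers against 4822 in DS livers (ratio 0.348), and the glucose-6-phosphatase gene G6pc, at 2336 and 5997 (ratio 0.390). Acaca, which encodes the acetyl-CoA carboxylase of fatty acid synthesis, had a ratio of 0.513, and Gpd2, the mitochondrial glycerol-3-phosphate dehydrogenase long used with malic enzyme as a readout of thyroid state, had signals of 796 and 1424 and a ratio of 0.559.

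The other 6 measured genes of this list had ratios close to 1. They were 0.869 for Cpt1a, the carnitine acyltransferase of fatty acid oxidation, 0.888 for Mlxipl, 0.962 for Pck1, 0.991 for Scarb1, 1.05 for Apoa1 and 1.06 for Cyp7a1, which encodes the first enzyme of bile acid synthesis. The list had a median log2 ratio of -0.19 over the 10 measured genes, against 0.04 over all 5076. Below a signal of 500, Ppargc1a had a ratio of 1.95, Pdk4 of 1.67, Fgf21 of 1.34 and Bcl3 of 1.12. The DS signals of Ppargc1a, Pdk4 and Fgf21 (112, 95.2 and 122) lay below that array's median of 125.2.

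The lipogenic genes that share dietary control with Me1 and Thrsp centred on a log2 ratio of -0.96, the median of 9 measured genes. All 9 had ratios below 1, as had 43.6% of all measured genes, and 3 were at least 2-fold lower, beside 1.77% of all measured genes. The lowest was Elovl6, a fatty acid elongase, with 389 in FLS livers against 3178 in DS livers (ratio 0.122). Srebf1, the gene of the transcription factor SREBP-1, had 2112 and 6319 (ratio 0.334). Pklr, a carbohydrate-induced pyruvate kinase gene, had a ratio of 0.507, Scd1 of 0.591 and Acly of 0.700. Fasn, Acaca and Mlxipl are also in the list of hormone-induced genes, so the lists are not separate evidence.

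Other enzymes that form NADPH in the cytosol, mitochondria or endoplasmic reticulum were read beside Me1. Of 4 measured genes of NADPH-forming enzymes, 3 had ratios above 1, beside 56.4% of all measured genes, and none differed by 2-fold. Pgd, of the pentose phosphate pathway, had signals of 1100 in FLS livers against 631 in DS livers (ratio 1.74), Idh2 a ratio of 1.45 and H6pd of 1.32, while the cytosolic isocitrate dehydrogenase gene Idh1 had 0.881. Their median log2 ratio was 0.47, against -3.56 for Me1.

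**Figure D2:**
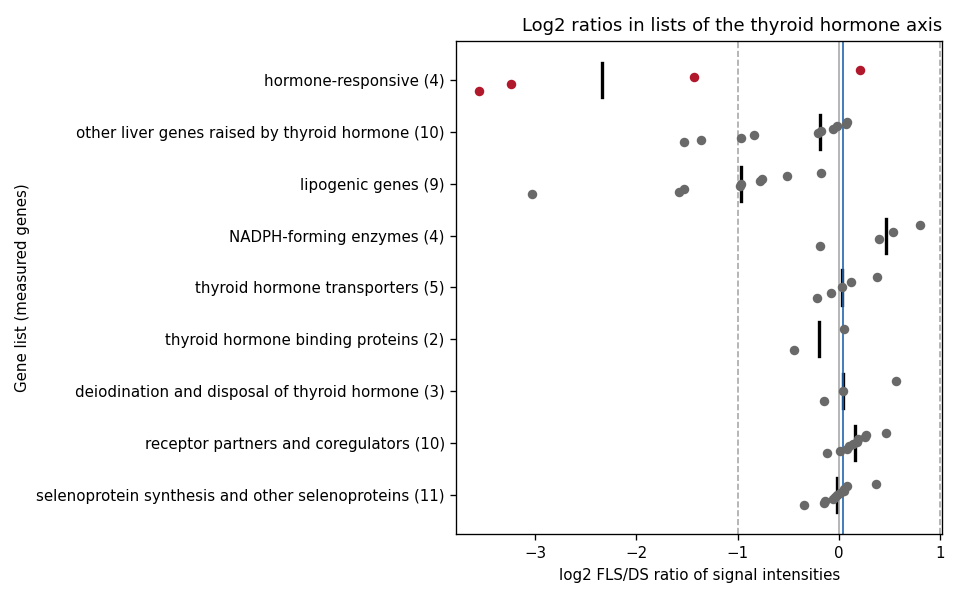
Log2 FLS/DS ratios (x axis) of measured genes in lists of the axis, 1 point per gene with its list on the y axis and the number of genes in brackets; the thick black bar is the list median, the blue line the median of all measured genes and the dashed lines a 2-fold difference. Points beyond the left dashed line are found among the hormone-responsive members, the other induced genes and the lipogenic genes, and the measured transporters, binding proteins, coregulators, NADPH-forming enzymes, selenoproteins of that list (without Dio1) and the 3 measured genes of the deiodination and disposal list (Iyd, Sult1a1 and Sult1b1, no deiodinase) lie between the dashed lines.

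Genes that bring the hormone into the cell differed little between the strains. Of 8 transporters found, 5 were measured and all lay within 2-fold, with a median log2 ratio of 0.03. Slc3a2, the heavy chain of amino acid transporters that also carry thyroid hormone, had a ratio of 1.30, and the organic anion transporters Slco1a1 and Slco1b2 had 0.862 and 1.09. The bile acid transporter gene Slc10a1, whose product also takes up thyroid hormones, had a ratio of 0.949 and Slco1a4 of 1.02. Among binding proteins, Serpina7, the thyroxine-binding globulin gene, had signals of 535 in FLS livers against 729 in DS livers, for a ratio of 0.734. Alb, which encodes albumin, had a ratio of 1.03, and Crym, a cytosolic binding protein, had signals of 93.3 and 126.0.

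Of the list of deiodination and disposal, the 3 measured genes, none of them a deiodinase, were also within 2-fold. Sult1a1, a sulfotransferase, had signals of 6867 in FLS livers against 4644 in DS livers, for a ratio of 1.48. Iyd, which encodes a dehalogenase that recovers iodide, had a ratio of 0.901 and Sult1b1 of 1.03. The median log2 ratio of these 3 measured genes was 0.04.

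Receptor partners and coregulators centred on a log2 ratio of 0.16, the median of 10 measured genes, of which 9 had ratios above 1, as had 56.4% of all measured genes, and none reached 2-fold. The largest difference was that of Ep300, a coactivator acetyltransferase, with 601 in FLS livers against 435 in DS livers (ratio 1.38). Crebbp, its paralog, had a ratio of 1.21, Rxra, the main hepatic partner of the receptors, of 1.19, and Hdac3, the deacetylase of the corepressor complex, of 1.14. Tbl1x, another part of that complex, had a ratio of 0.924.

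As Dio1 is a selenoprotein, genes of selenoprotein synthesis and other selenoproteins were read beside it. None of 11 measured genes differed by 2-fold, and their median log2 ratio was -0.01. Txnrd1, a thioredoxin reductase, had a ratio of 1.29, Msrb1, a methionine sulfoxide reductase, of 0.789, and the enzyme gene Sepsecs of 0.906. Selenof, of the endoplasmic reticulum, had a ratio of 0.908. The secreted selenoprotein gene Selenop had signals of 21404 in FLS livers against 21190 in DS livers, and Gpx1 of 18622 and 18788. The measured genes of this list had ratios from 0.789 to 1.29, beside 0.106 for Dio1.

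To place these patterns among other genes, the 5 measured genes with the nearest log2 ratio were taken for each of Dio1, Me1 and Thrsp, a likeness over 2 samples only. For Dio1 they were Hspb1 (ratio 0.109), Cyp2b13 (0.122), Elovl6 (0.122), Socs2 (0.126) and Me1, at differences in log2 ratio from 0.05 to 0.32. For Me1 they were Obp2a (0.0694), Dio1, Hspb1, Cyp2b13 and Elovl6, at differences from 0.29 to 0.53. For Thrsp they were Hsph1 (0.367), Fam47e (0.375), Pdk1 (0.365), Serpina12 (0.376) and N4bp2l1 (0.361), at differences up to 0.04.

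Both pools had the markers of liver. All 9 hepatocyte markers found were measured, with ratios between 0.989 and 1.35, and their summed signal was 179800 in FLS livers against 173471 in DS livers. None of 4 adipocyte markers, cells in which Me1 and Thrsp are also strong, exceeded 500, their summed signals being 388 and 445, with Adipoq at 60.7 and 63.4 and Lep at 59.6 and 59.0. Stellate cell markers had a summed signal of 10916 in FLS livers against 7496 in DS livers, with 3 of 6 measured and Col3a1 2.78-fold higher in FLS livers. Summed markers of macrophages (4 of 6 measured) had a ratio of 0.938 and of endothelial cells (3 of 5 measured) of 1.10. None of the bile duct, neutrophil and T cell markers, 4 each, exceeded 500, and their sums had ratios of 1.34, 0.855 and 0.953, the first mostly from Sox9 with 365 in FLS livers against 140 in DS livers. The sums stand beside the lower signals of Dio1, Me1 and Thrsp, and the part of these cells in the 9 genes was not tested.

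The arrays also differed in their controls for intact RNA. The signal of the 3′ probe set of Actb over that of its 5′ probe set was 1.89 in FLS livers against 1.48 in DS livers, and for Gapdh it was 1.28 and 1.05. Where the probe sets of Dio1, Me1 and Thrsp lie along their transcripts was not examined, and the part of this difference in their ratios was not tested.

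The scaling of the arrays moved the ratios little, though median centring and division by Actb shift all genes by the same factor. Over quantile normalization, median centring, removal of a loess trend and division by Actb, the ratio of Dio1 lay between 0.104 and 0.122, that of Me1 between 0.0834 and 0.0979 and that of Thrsp between 0.370 and 0.427. Klf9 stayed above 1, from 1.15 to 1.33, as did Thra and Slc16a10. Hr (1.02 to 1.14) was above 1 under all of these scalings and below it as deposited, Thrb (0.984 to 1.11) passed 1 under some, and Ttr (0.987 to 1.18) fell below 1 under quantile normalization, so no direction can be given for these 3 genes.

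**Figure D3:**
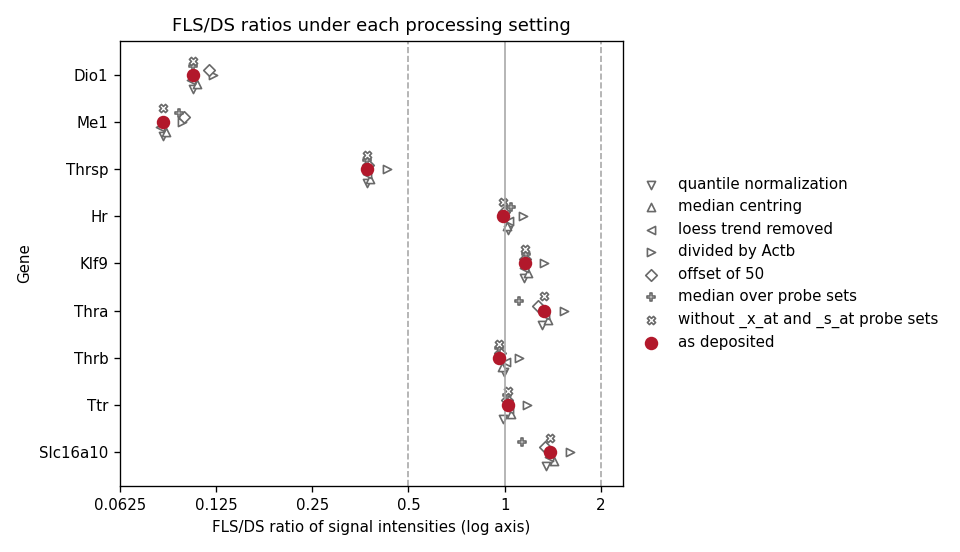
FLS/DS ratio (log axis) of each of the 9 genes as deposited (red circles) and under 7 other settings (open symbols), with the solid line at equal signals and dashed lines at a 2-fold difference. Every symbol of Dio1, Me1 and Thrsp lies left of the line at 0.5, and every symbol of the other 6 genes lies between the dashed lines.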

How the data were processed

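The authors pooled total liver RNA of 3 mice per strain, hybridized 1 Affymetrix mouse genome array per pool, and deposited normalized signal intensities on a linear scale, from MBEI (PM-only), which models the responses of perfect-match probes. The submitters' processing notes name affy, and the method of scaling between arrays is not stated there or in the paper. With 2 arrays, their number limits the precision, no p-value can be given, and no replicate could be left out.

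Ratios of the deposited signals were computed for 45101 probe sets with no offset. The platform annotation gave 1 symbol to 34958 probe sets, several to 932 (not used) and none to 9211. Symbols of 34754 were updated through Entrez numbers in RefSeq. Each gene was read from its brightest probe set, and 500 was the signal limit. The members and the 20 other gene lists were chosen with earlier results of these data known, and 162 of 181 list entries were found. Named were all 9 genes, their near relatives, list genes that were measured and at least 2-fold apart or among the 4 with the largest differences in their list, up to 3 bright markers per cell type, and the 5 nearest patterns; other genes were chosen after their values were seen. Alternatives were 4 scalings, an offset of 50, the median over probe sets, omission of probe sets ending in _x_at or _s_at, signal limits of 200, 1000 or none, and ratio limits of 1.5 and 3. Exact motifs were searched on both strands of RefSeq promoter windows. Windows were read for 6 of the 9 genes, and those of Hr, Thra and Ttr were not used. The counting was tested on simulated data. The software was matplotlib 3.10.9, statsmodels 0.14.6, pandas 2.3.3 and numpy 2.4.6 under Python 3.11.15.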

Additional observations from a re-analysis of the deposited data

How the results depend on the processing

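The ratios of Dio1, Me1 and Thrsp moved by less than the tolerance, and the count of hormone-responsive genes at least 2-fold lower in FLS livers was 3, under every scaling, the offset of 50, the median over probe sets and the omission of probe sets ending in _x_at or _s_at. The omission could not move these 3 genes, as none of their probe sets has such an ending. Nor could the median over probe sets move Dio1, which has 1 probe set, and for Thrsp that median was the brightest probe set itself. Median centring and division by Actb shift all genes alike, by 0.04 and 0.21 on the log2 scale. Both shifts are below the tolerance, so these scalings could neither move a ratio beyond it nor change the count of 3. The count was also 3 at a ratio limit of 1.5 and 2 at a limit of 3, which Thrsp at 2.70-fold does not reach. On its second bright probe set Thrsp was 4.27-fold lower, so the count at that limit depends on the probe set read. A ratio or median counted as moved beyond 0.22 on the log2 scale, the SD between probe sets of 1 gene, and a count beyond 1.5 times. With the median over all probe sets, Thra had a ratio of 1.11 and Slc16a10 of 1.13. With only genes above a signal of 500, the median log2 ratio of the hormone-responsive genes was -2.34, since Hr was then left out. In all, 85 values for the 9 genes, their medians and this count stayed within the tolerance. Among them are values that a setting could not change, or could not move beyond the tolerance. Among counts in other gene lists, 64 stayed within 1.5-fold and 2 became 0 at a signal limit of 1000, those of Nr1d1 among clock genes and Cdkn1a among glucocorticoid-responsive genes, as genes under that limit were no longer counted. No paired analysis was possible because each strain had 1 array. Signals near the array medians, those of Hr and Thrb, allow no statement on a difference.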

Other observations

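Other signals that act on the same genes were read as values. Of all measured genes, the share with a 2-fold higher signal in FLS livers was 2.29% and with a 2-fold lower one 1.77%, and each count below stands beside these shares. Klf9 also responds to glucocorticoids and to the clock. Of 6 measured glucocorticoid-responsive genes, 1 was at least 2-fold higher in FLS livers and none lower, with a median log2 ratio of 0.23. The higher one was the cell cycle inhibitor gene Cdkn1a, at 757 in FLS livers against 149 in DS livers, a ratio of 5.07. Tsc22d3 had a ratio of 1.30, Sgk1 of 1.25, Fkbp5 of 1.10 and Tat of 1.01, while Dusp1, a phosphatase gene also induced by stress, had 0.568.

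Among 6 measured clock genes, 1 was at least 2-fold higher and none lower, with a median log2 ratio of -0.08. Nr1d1 was the higher one, whereas Nr1d2, its paralog, had a ratio of 0.984 and Dbp, a clock output gene, of 0.914. Clock had a ratio of 1.51, Hlf of 0.601 and Tef of 0.814.

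Among 4 measured genes induced by fasting, 2 had a signal at least 2-fold lower in FLS livers and none a higher one. Pck1, G6pc, Fgf21, Pdk4 and Ppargc1a are also in the list of hormone-induced genes, so the lists are not separate evidence. Igfbp1 had signals of 2762 in FLS livers against 6747 in DS livers, for a ratio of 0.409, and G6pc a ratio of 0.390, while Angptl4 had 1.13 and Pck1 0.962. Below a signal of 500, Ppargc1a, Pdk4 and Fgf21 had ratios between 1.34 and 1.95. Their DS signals of 112, 95.2 and 122 lay below that array's median of 125.2, so little can be read from these ratios. Of the 4 measured genes, 3 had ratios below 1, as had 43.6% of all measured genes, and 1 had a ratio above 1.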
